A study of Mus musculus with 24 samples.

Results

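Fatty acid oxidation genes and targets of peroxisome proliferator-activated receptor alpha (PPAR alpha) were followed in liver as 40 genes picked by symbol, all of which were found among the 41388 genes of the files. Their level was measured by sequencing of poly-A RNA from liver of male mice, with 5 single mice in each of 4 groups. WT mice were homozygous for a floxed Lpin1 allele and carried no Cre, whereas their Adn-Lpin1-/- littermates carried the same floxed alleles and Cre driven by the adiponectin promoter, so that the phosphatidic acid phosphatase lipin 1 was lost in adipocytes and the allele was intact in hepatocytes. Mice of either genotype, on a C57BL/6J background and 8 weeks old at the start, were fed a low-fat diet (LFD, 10% of kcal from fat) or a high-fat diet (HFD, 60% of kcal from fat) and were fasted for 4 hours before sacrifice. The labels give 16 weeks of feeding, and the description of the diet study gives a shorter time. Each group also had 1 library of RNA pooled from its 5 mice, which was left out of the tests. In whole liver, Lpin1 itself checks nothing of the deletion, and it ran from 142 to 673 CPM (counts scaled to a fixed library total) in WT LFD mice, 322 to 1195 in Adn-Lpin1-/- LFD, 137 to 556 in WT HFD and 120 to 580 in Adn-Lpin1-/- HFD.

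Fatty acids that reach the liver are activated to acyl-CoA, carried into mitochondria on carnitine and shortened by beta-oxidation, and the acetyl-CoA formed can leave as ketone bodies. Very long and branched chains are first shortened in peroxisomes, and omega-oxidation by the Cyp4a enzymes opens a further route from the methyl end of the chain. PPAR alpha, a nuclear receptor that binds fatty acids and pairs with a retinoid X receptor, drives the genes of each of these routes in fasted liver. Its textbook binding site, called DR1, is a direct repeat of the hexamer AGGTCA spaced by 1 base.

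Promoter windows of 300 bases, from 250 bases before to 50 after a transcript start, were available from RefSeq (GRCm38.p6) for 31 of the 40 genes, in 36 windows. Neither AGGTCANAGGTCA nor AGGNCANAGGNCA was found on either strand of the 36 windows, where 0.0396% and 0.381% of all 32851 mouse windows held them, and AGGNCAAAGGNCA, which 0.0944% held and which the second pattern includes, was not found either. With shares this low, finding none in 36 windows is the likely outcome for any genes, so it does not show that the 40 lack such sites. Sequence outside the windows, and the genes without a window, were not searched. A single AGGTCA, also part of the first pattern, lay in 7 of the 36 windows, from Acadm, Acadvl, Acot3, Acot4, Cpt1a and Creb3l3, against 16.3% of all windows. The windows below belong to 3 genes that differed between the genotypes on the HFD, and they are shown because the 3 were called in different directions. The gene encoding the kinase Pdk4 has the window chr6:5496229-5496528 on the minus strand, the thiolase gene Acaa1b has chr9:119157044-119157343 on the minus strand, and Creb3l3 has 2 windows on the minus strand, chr10:81098823-81099122 at the outer start and chr10:81092542-81092841 at a start inside the gene. Capitals mark AGGTCA, which stands 49 bases into the inner Creb3l3 window.
Pdk4: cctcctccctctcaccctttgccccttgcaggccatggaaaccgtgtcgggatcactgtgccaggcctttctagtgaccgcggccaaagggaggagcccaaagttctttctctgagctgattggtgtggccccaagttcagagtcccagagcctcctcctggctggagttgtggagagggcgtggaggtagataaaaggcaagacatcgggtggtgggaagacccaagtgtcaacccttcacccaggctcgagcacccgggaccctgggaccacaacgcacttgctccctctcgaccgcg
Acaa1b: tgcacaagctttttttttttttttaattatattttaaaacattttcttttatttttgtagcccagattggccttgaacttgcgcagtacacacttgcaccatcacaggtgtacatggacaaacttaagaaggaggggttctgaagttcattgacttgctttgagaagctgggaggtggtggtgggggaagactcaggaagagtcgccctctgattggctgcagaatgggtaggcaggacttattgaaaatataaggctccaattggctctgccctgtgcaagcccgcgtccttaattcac
Creb3l3 outer start: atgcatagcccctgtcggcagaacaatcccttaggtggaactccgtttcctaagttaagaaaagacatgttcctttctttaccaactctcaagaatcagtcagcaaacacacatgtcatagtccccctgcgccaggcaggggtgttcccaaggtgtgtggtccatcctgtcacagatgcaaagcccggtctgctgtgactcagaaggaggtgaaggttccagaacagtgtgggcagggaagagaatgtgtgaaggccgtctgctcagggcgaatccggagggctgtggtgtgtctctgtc
Creb3l3 inner start: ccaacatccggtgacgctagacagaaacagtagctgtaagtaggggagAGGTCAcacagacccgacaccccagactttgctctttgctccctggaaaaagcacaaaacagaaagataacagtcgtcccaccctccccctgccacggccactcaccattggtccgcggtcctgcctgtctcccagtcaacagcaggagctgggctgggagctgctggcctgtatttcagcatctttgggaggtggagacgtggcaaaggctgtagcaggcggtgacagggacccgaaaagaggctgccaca

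Adn-Lpin1-/- livers differed from WT livers in few of the 40 genes and in single members of different routes. On the LFD, Pdk4, Vnn1 and Acaa1b were higher in Adn-Lpin1-/- mice. On the HFD, Pdk4 and Acaa1b were higher and Creb3l3 was lower. All 40 genes passed the limit of over 1 CPM in at least 4 mice, and all were tested with the other genes in the quasi-likelihood test of edgeR, and a gene was called at a Benjamini-Hochberg adjusted p at or below 0.05 over 13052 genes. On the LFD 3 of the 40 were called (7.5%), where 14.4% of all genes were called, and on the HFD 3 of the 40 (7.5%), where 18.6% of all genes were. The share of called genes was no higher among the 40 than in the background on either diet. With the same mice, voom with quality weights called 6 of the 40 on the LFD, where it called 2217 of all 13052, and 1 of the 40 on the HFD, where it called 18.7% of all genes. In bulk liver, fewer cells of a type and less RNA per cell cannot be told apart. The fitted log2 fold change was above 0 for 30 of the 40 on the LFD, with a median of 0.14, and for 25 of the 40 on the HFD, with a median of 0.09, whereas the medians of all genes were 0.01 and 0.002. These medians rested on single mice. The LFD median was 0.04 without WT mouse 2 and 0.07 without Adn-Lpin1-/- mouse 4. The HFD median was -0.01 without WT mouse 5, 0.03 without Adn-Lpin1-/- mouse 1 and 0.13 without Adn-Lpin1-/- mouse 5, and with voom it was 0.05. On the LFD the difference lay within 0.5 of 0 on the log2 scale for 31 of the 40 genes, and on the HFD for 34. The groups did not overlap for Pdk4 on the LFD and for Creb3l3 on the HFD, which is 1 gene of 40 each, where 10.1% and 11.4% of all genes did not overlap.

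**Figure D1:**
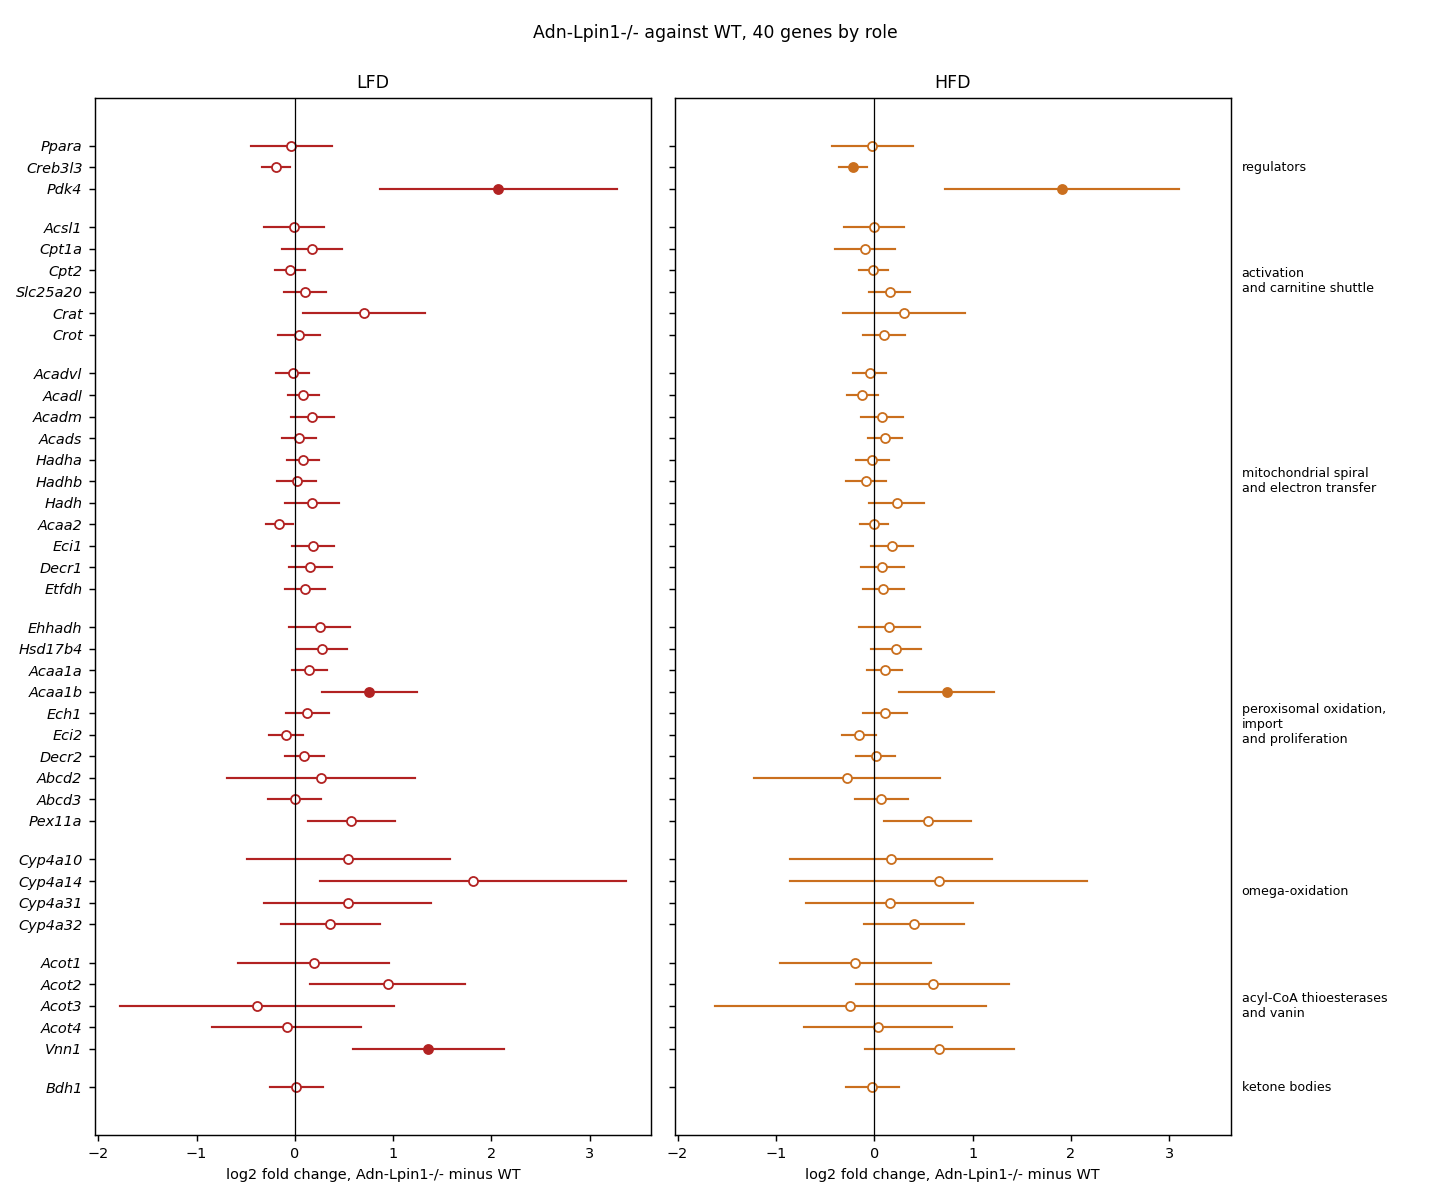
Log2 fold change of Adn-Lpin1-/- against WT for the 40 genes, ordered by role, on the LFD (left) and the HFD (right), with points for the edgeR estimate, bars for the 95% confidence interval and filled points for called genes. Pdk4 stands at 2.07 and 1.91, and most mitochondrial genes lie close to 0 with narrow bars. Cyp4a14, Acot3 and Pdk4 have the widest bars on both diets.

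Libraries and cell markers also differed between the groups. Total counts ran from 36260187 to 45999456 in WT LFD mice and from 51095146 to 81072794 in the other 15 mice, so depth and the WT LFD group cannot be told apart, though the smallest count of any of the 40 genes in a mouse was 46 (Pdk4). Hepatocyte markers were abundant in every mouse, with a summed level of 113541 to 120581 CPM in WT LFD, 81280 to 109642 in Adn-Lpin1-/- LFD, 102222 to 134090 in WT HFD and 84913 to 114246 in Adn-Lpin1-/- HFD. Of 8 hepatocyte markers, 1 was lower on the LFD and 4 were lower on the HFD in Adn-Lpin1-/- mice, among them Alb at -0.34. Of 5 macrophage markers, 0 were called on the LFD and 4 were higher on the HFD, with sums of 87.6 to 160 CPM in WT LFD, 116 to 208 in Adn-Lpin1-/- LFD, 105 to 124 in WT HFD and 133 to 292 in Adn-Lpin1-/- HFD. Of 5 endothelial markers, 2 and 3 were higher on the LFD and the HFD, of 5 stellate cell markers, Col1a1 was higher on each, and of 4 cholangiocyte markers, 0 were called. All of these marker counts are to be read against the 14.4% (LFD) and 18.6% (HFD) of all genes that were called. Of 5 adipocyte markers, Adipoq, Retn, Lep and Plin1 stayed under the limit. Adipoq, which defines adipocytes, was highest in WT LFD mouse 1 (4.32 CPM) and WT HFD mouse 2 (0.746 CPM), and none of the 4 passed 0.154 CPM in an Adn-Lpin1-/- mouse. Only Cfd was tested, with log2 fold changes of 3.76 (LFD) and 3.81 (HFD), both called, and it had 146, 183, 68.5, 6.89 and 3.90 CPM in Adn-Lpin1-/- HFD mice, where mice 4 and 5 are also the lowest for Pdk4. Over the 40 genes, mouse 4 was the lowest of this group in 9, where it was the lowest in 21.1% of all genes. Mouse 5 was the lowest in 25 of the 40, where it was the lowest in 18.9% of all genes. Skeletal muscle markers were under 1 CPM in every mouse, as were 3 of 4 kidney markers and 2 of 3 pancreatic markers. The part of these shifts in the genotype differences was not tested.

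Among the regulators, Pdk4 rose on both diets, Creb3l3 fell slightly on the HFD, and the receptor gene itself did not pass the test. Ppara (ENSMUSG00000022383, chromosome 15 of GRCm38, 85734983 to 85802819) had 112, 103, 147, 108 and 190 CPM in the 5 WT LFD mice, and 100.1, 142, 121, 164 and 116 CPM in the Adn-Lpin1-/- LFD mice. On the HFD it had 166, 143, 153, 194 and 115 CPM in WT mice and 213, 182, 117, 137 and 111 CPM in Adn-Lpin1-/- mice. The groups overlapped over most of their range on each diet. The log2 fold change of Ppara by genotype was -0.03 on the LFD (95% confidence interval -0.44 to 0.38) and -0.02 on the HFD (-0.43 to 0.39), which bounds the difference that these mice leave possible. With voom the LFD value was 0.09.

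Pdk4 (ENSMUSG00000019577, chromosome 6, 5483351 to 5496309) encodes a kinase that shuts off pyruvate dehydrogenase and so spares glucose when fatty acids are burned. In WT LFD mice it had 3.06, 1.96, 1.79, 2.45 and 3.92 CPM, and in Adn-Lpin1-/- LFD mice 7.44, 25.0, 5.45, 7.33 and 10.3 CPM. Every Adn-Lpin1-/- mouse on the LFD was above every WT mouse. The rise was 4.20-fold (log2 fold change 2.07, standard error 0.58, adjusted p = 0.0211), and the exact permutation test of 5 against 5 mice gave p = 0.00794, the smallest it can give. In WT HFD mice Pdk4 had 2.81, 1.77, 2.25, 3.46 and 0.787 CPM, and in Adn-Lpin1-/- HFD mice 22.3, 8.51, 6.78, 2.36 and 1.71 CPM. Mice 1 to 3 of the Adn-Lpin1-/- HFD group were above all WT HFD mice, and mice 4 and 5 were inside the WT range. The rise on the HFD was 3.76-fold (log2 fold change 1.91, standard error 0.57, adjusted p = 0.0258), whereas the exact permutation test gave p = 0.0952. The call on the LFD was lost without WT mouse 2, WT mouse 3 or Adn-Lpin1-/- mouse 2 (log2 fold changes of 1.53 to 1.97, adjusted p of 0.0509 to 0.0842). That on the HFD was lost without WT mouse 2, WT mouse 5 or Adn-Lpin1-/- mouse 1 (1.13 to 1.84, adjusted p of 0.0593 to 0.130), and also with voom and in a fit of only the groups compared. Pdk4 was the least abundant of the 40 genes per length, at 1.73 CPM per kb over the 20 mice, and its lowest count in a mouse was 46.

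Creb3l3 (ENSMUSG00000035041, chromosome 10, 81084324 to 81098874) encodes a transcription factor of the endoplasmic reticulum membrane that is released in fasting and acts beside PPAR alpha. It had 357, 366, 419, 405 and 397 CPM in WT LFD mice and 333, 318, 375, 368 and 311 CPM in Adn-Lpin1-/- LFD mice. On the HFD it had 390, 377, 405, 368 and 375 CPM in WT mice and 330, 329, 302, 367 and 324 CPM in Adn-Lpin1-/- mice, and the highest Adn-Lpin1-/- mouse was just below the lowest WT mouse. The decrease on the HFD was small (log2 fold change -0.21, standard error 0.07, adjusted p = 0.0344), and the exact permutation test gave p = 0.00794. On the LFD the log2 fold change was -0.19 (standard error 0.07, adjusted p = 0.0680), and the difference between the diets was -0.03 (95% confidence interval -0.23 to 0.17). Creb3l3 varied little between mice of a group, with an SD of 0.10 on the log2 scale, above that of only 9.50% of all genes. The HFD call was lost without any of 6 mice (WT mice 2 and 3, Adn-Lpin1-/- mice 1, 2, 3 and 5), with adjusted p of 0.0536 to 0.0853 and log2 fold changes of -0.22 to -0.18, and with no limit on low counts, where more genes were tested (adjusted p = 0.0698).

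**Figure D2:**
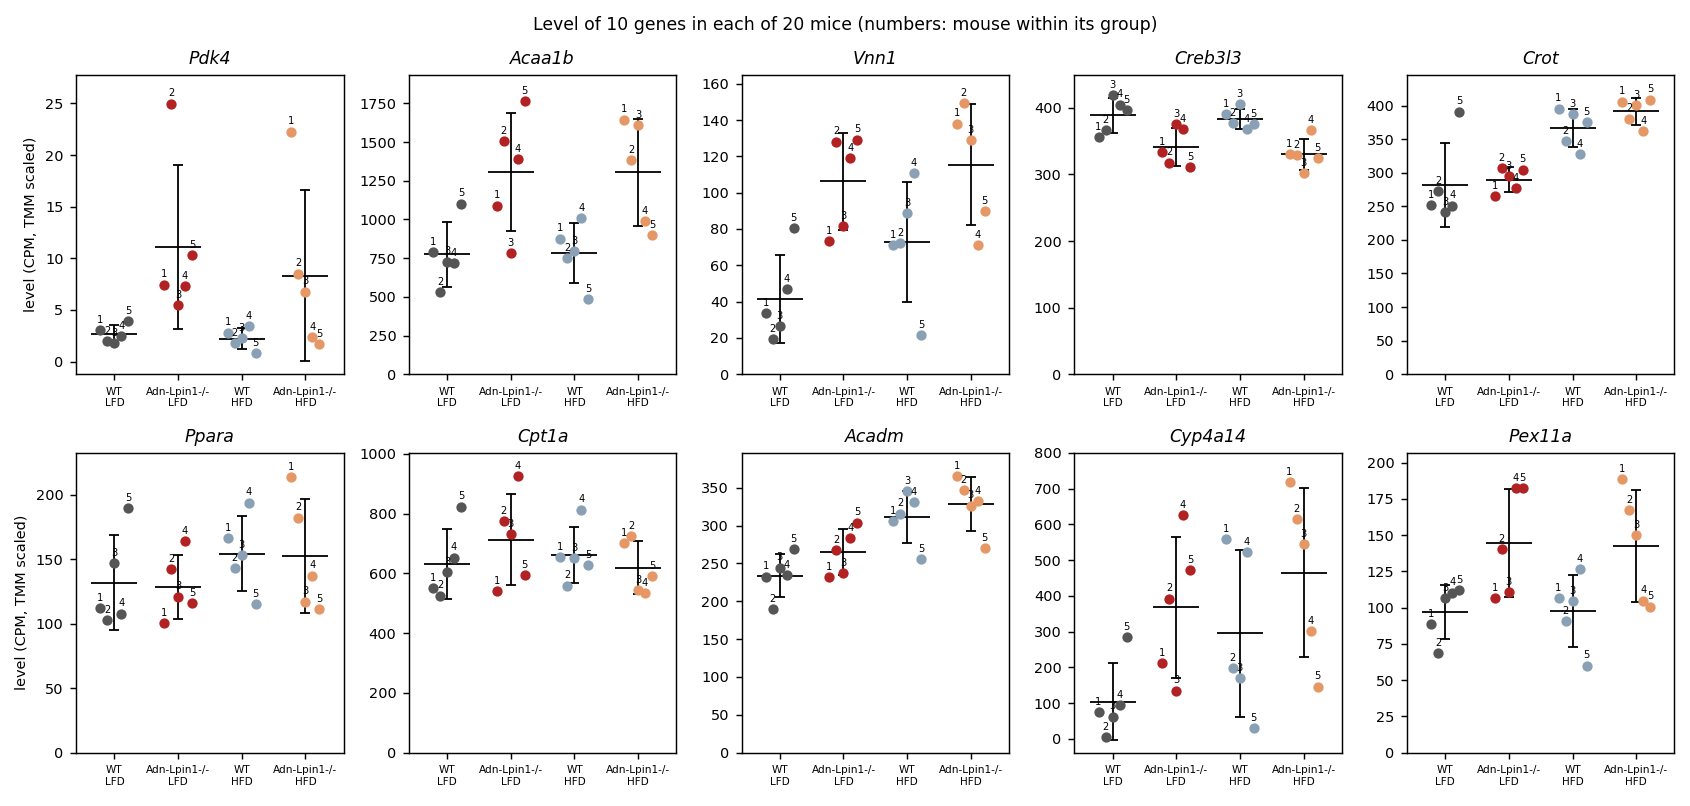
Level of 10 of the 40 genes in each of the 20 mice (vertical axis, CPM on TMM-scaled library sizes), with numbered points for the mice of each group, a bar for the mean and whiskers for the SD of 5 mice. Pdk4 in Adn-Lpin1-/- LFD mice lies above all WT LFD mice, and mice 4 and 5 of Adn-Lpin1-/- HFD lie low for Pdk4, Acaa1b and Cyp4a14. Crot and Acadm have higher means on the HFD in both genotypes, of which only the rise of Crot in Adn-Lpin1-/- mice was called.

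Genes of fatty acid activation and of the carnitine shuttle did not pass the test by genotype on either diet, 0 of 6 on each. Among all genes, 14.4% passed on the LFD and 18.6% on the HFD. Cpt1a (ENSMUSG00000024900, chromosome 19, 3323301 to 3385732), which commits long chains to mitochondria, had 551, 526, 604, 653 and 823 CPM in WT LFD mice and 540, 775, 731, 926 and 594 CPM in Adn-Lpin1-/- LFD mice. Under HFD feeding Cpt1a had 653, 559, 652, 813 and 626 CPM in WT mice and 701, 725, 543, 534 and 590 CPM in Adn-Lpin1-/- mice. The groups overlapped on both diets, with log2 fold changes of 0.18 (95% confidence interval -0.13 to 0.48) on the LFD and -0.09 (-0.40 to 0.21) on the HFD. The largest difference in the group was that of Crat, the carnitine acetyltransferase, at 0.70 on the LFD (standard error 0.30, adjusted p = 0.121). For Acsl1, Cpt2, Slc25a20 and Crot, the log2 fold changes by genotype were between -0.05 and 0.16 over both diets.

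Of the 11 genes of the mitochondrial spiral and of electron transfer, 0 were called by genotype on either diet. This count is to be read against the 14.4% (LFD) and 18.6% (HFD) of all genes that were called. Their log2 fold changes ran from -0.16 for the thiolase Acaa2 to 0.18 for the isomerase Eci1 on the LFD, and from -0.12 for Acadl to 0.23 for Hadh on the HFD. The widest 95% confidence limits over the 11 genes were -0.30 and 0.45 on the LFD and -0.28 and 0.50 on the HFD. Acadm (ENSMUSG00000062908, chromosome 3, 153922357 to 153944632), the dehydrogenase of medium chains, had 232, 190, 244, 234 and 269 CPM in WT LFD mice and 232, 268, 238, 283 and 304 CPM in Adn-Lpin1-/- LFD mice. HFD values of Acadm were 306, 316, 345, 331 and 256 CPM in WT mice and 365, 347, 326, 332 and 270 CPM in Adn-Lpin1-/- mice. By genotype, Acadm differed by 0.18 in log2 terms on the LFD (95% confidence interval -0.04 to 0.39) and 0.08 on the HFD (-0.14 to 0.29), with overlapping groups.

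Of the 10 peroxisomal genes, the thiolase gene Acaa1b was called on both diets and the other 9 were not called on either. The shares called among all genes were 14.4% (LFD) and 18.6% (HFD). Acaa1b (ENSMUSG00000010651, chromosome 9, 119148023 to 119157093) had 791, 529, 727, 720 and 1103 CPM in WT LFD mice and 1090, 1508, 784, 1392 and 1763 CPM in Adn-Lpin1-/- LFD mice. On the HFD it had 877, 748, 797, 1008 and 486 CPM in WT mice and 1645, 1385, 1609, 989 and 900.3 CPM in Adn-Lpin1-/- mice. The groups overlapped on each diet, at the highest WT and the lowest Adn-Lpin1-/- animals. The rise was 1.69-fold on the LFD (log2 fold change 0.76, standard error 0.23, adjusted p = 0.0343) and 1.67-fold on the HFD (0.74, standard error 0.23, adjusted p = 0.0329). Exact permutation tests gave p = 0.0397 and p = 0.0238. The LFD call was lost without any of 7 mice (WT mice 1, 2, 3 and 4, Adn-Lpin1-/- mice 2, 4 and 5), with log2 fold changes of 0.63 to 0.76 and adjusted p of 0.0569 to 0.0995. The HFD call was lost without any of 6 mice (WT mice 2, 3 and 5, Adn-Lpin1-/- mice 1, 2 and 3), with 0.60 to 0.73 and adjusted p of 0.0577 to 0.0859. When trends of counts with GC content were taken out library by library (added after the data were seen), Acaa1b was called on neither diet, and with voom it was not called on the HFD (adjusted p = 0.0510).

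Acaa1a encodes the other peroxisomal thiolase of this kind, and its coding sequence was identical to that of Acaa1b at 96.5% of aligned positions. The first 120 coding bases of the longest reading frame of each are shown because they tell the copies apart at only 4 positions, which are in capitals.
Acaa1a: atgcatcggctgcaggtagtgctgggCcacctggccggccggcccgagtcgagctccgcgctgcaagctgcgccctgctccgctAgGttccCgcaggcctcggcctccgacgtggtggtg
Acaa1b: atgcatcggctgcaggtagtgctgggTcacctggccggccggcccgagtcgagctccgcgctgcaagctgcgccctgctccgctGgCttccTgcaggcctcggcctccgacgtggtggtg
Of the 50-base windows of Acaa1b transcripts, 30.5% also occurred in another gene's transcripts. A read that fits both copies would not be counted, since only uniquely aligned reads were, and misplaced reads were not tested for. The gene span also overlaps that of Dlec1, and since the strand setting of the counting is not stated, reads of the overlap may not be told apart. Acaa1a had means of 227, 251, 242 and 260 CPM in WT LFD, Adn-Lpin1-/- LFD, WT HFD and Adn-Lpin1-/- HFD mice, and log2 fold changes by genotype of 0.15 (standard error 0.09, adjusted p = 0.273) and 0.10 (standard error 0.09, adjusted p = 0.414) on the LFD and the HFD. Per length, Acaa1b was the second most abundant of the 40 genes, at 531 CPM per kb over the 20 mice, and Acaa1a stood at 55.5 CPM per kb.

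Pex11a (ENSMUSG00000030545, chromosome 7, 79735957 to 79743131), which promotes division of peroxisomes, was singled out after its values were seen, since it came close to the threshold on both diets. It had 88.4, 68.4, 106, 110 and 112 CPM in WT LFD mice and 107, 140, 111, 182 and 183 CPM in Adn-Lpin1-/- LFD mice. On the HFD it had 107, 90.6, 104, 127 and 60.0 CPM in WT mice and 189, 167, 150.0, 105 and 101 CPM in Adn-Lpin1-/- mice. The log2 fold changes were 0.57 (standard error 0.21, adjusted p = 0.0742) and 0.54 (standard error 0.21, adjusted p = 0.0773) on the LFD and the HFD. DESeq2's Wald test placed them past the threshold, with adjusted p of 0.0338 and 0.0413. Among the other peroxisomal genes, the bifunctional enzymes Ehhadh and Hsd17b4 had log2 fold changes of 0.25 and 0.28 on the LFD and 0.15 and 0.22 on the HFD. Abcd2, a transporter of very long chains into peroxisomes, was fitted at 0.27 on the LFD and -0.28 on the HFD, with standard errors of 0.46 and 0.45.

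The 4 Cyp4a genes, whose enzymes start omega-oxidation, were each fitted higher in Adn-Lpin1-/- mice on both diets. On either diet 0 of 4 were called, where 14.4% (LFD) and 18.6% (HFD) of all genes were. Cyp4a14 (ENSMUSG00000028715, chromosome 4, 115486200 to 115496142), singled out after its values were seen as the widest ranging of the 40 genes, had 74.5, 5.62, 62.3, 95.4 and 286 CPM in WT LFD mice and 213, 392, 136, 627 and 473 CPM in Adn-Lpin1-/- LFD mice. On the HFD it had 558, 198, 169, 522 and 29.8 CPM in WT mice and 719, 615, 545, 303 and 146 CPM in Adn-Lpin1-/- mice. The highest mouse was 128 times as high as the lowest, and the groups overlapped on both diets. The log2 fold change on the LFD was 1.81 (standard error 0.75, adjusted p = 0.109) and that on the HFD was 0.66 (standard error 0.72, adjusted p = 0.562). Without WT LFD mouse 5 the LFD difference was 2.63 and past the threshold (adjusted p = 0.0267), and voom with quality weights called it too (2.59, adjusted p = 0.0282). Without WT LFD mouse 2, the lowest of all mice, the LFD difference was 1.50. The HFD difference was 0.35 without WT HFD mouse 5 and 1.00 without WT HFD mouse 1. Cyp4a10, Cyp4a31 and Cyp4a32 had log2 fold changes of 0.55, 0.54 and 0.36 on the LFD and 0.17, 0.16 and 0.40 on the HFD. Their coding sequences were identical to each other at 96.0% to 97.2% of positions, and 29.8%, 20.6% and 43.8% of their 50-base transcript windows occurred in another gene. Only uniquely aligned reads were counted, so a read that fits more than 1 of these genes would not be counted. Whether reads were misplaced among these 3 genes was not tested. Cyp4a14 shared 0.235% of its windows.

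Among the acyl-CoA thioesterases and vanin, Vnn1 was called on the LFD and the 4 Acot genes were not called on either diet. Vnn1 (ENSMUSG00000037440, chromosome 10, 23894688 to 23905343) encodes the pantetheinase vanin 1, which breaks down pantetheine, a precursor of coenzyme A. It had 33.8, 19.3, 26.4, 47.1 and 80.5 CPM in WT LFD mice and 73.2, 128, 81.6, 119 and 129 CPM in Adn-Lpin1-/- LFD mice. Apart from WT mouse 5, all WT LFD mice were below all Adn-Lpin1-/- LFD mice. The rise was 2.57-fold (log2 fold change 1.36, standard error 0.37, adjusted p = 0.0188), and the exact permutation test gave p = 0.0159. On the HFD Vnn1 had 71.3, 72.0, 88.7, 111 and 21.6 CPM in WT mice and 138, 149, 129, 71.2 and 89.8 CPM in Adn-Lpin1-/- mice. The groups overlapped there, with a log2 fold change of 0.66 (95% confidence interval -0.09 to 1.42, adjusted p = 0.212). The difference between the diets was itself not past the threshold (log2 difference -0.70, standard error 0.51, adjusted p = 0.832), so Vnn1 is not shown to respond on one diet alone. The LFD call was lost without WT mouse 3 (log2 fold change 1.23, adjusted p = 0.0557). Acot2, the mitochondrial thioesterase, had log2 fold changes of 0.95 on the LFD (standard error 0.38, adjusted p = 0.10) and 0.60 on the HFD, and those of Acot1, Acot3 and Acot4 lay between -0.38 and 0.19. The coding sequences of the 4 Acot genes were identical to each other at 66.8% to 85.5% of positions. Bdh1, which makes beta-hydroxybutyrate, was the 1 ketone body gene, with fitted genotype differences of 0.01 (LFD) and -0.02 (HFD) in log2 terms.

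On the HFD, Crot rose in Adn-Lpin1-/- mice, while Crot in WT mice and Acadm in both genotypes were fitted higher without passing the threshold. In WT mice 0 of the 40 genes were called, where 1.10% of all genes were called. An unadjusted p under 0.05 in edgeR's test was reached by 4 of the 40, and by 2059 of the 13052 genes. DESeq2's Wald test called 2 of the 40 (Acadm and Crot) and 3.06% of all genes, and voom with quality weights called 4 of the 40 (with Hadh and Vnn1) and 5.13% of all genes. In Adn-Lpin1-/- mice 1 of 40 was called (2.5%), where 2.46% of all genes were. Crot (ENSMUSG00000003623, chromosome 5, 8966033 to 8997324) encodes the carnitine octanoyltransferase that hands shortened chains from peroxisomes to mitochondria. It had 265, 307, 295, 277 and 305 CPM in Adn-Lpin1-/- LFD mice and 406, 381, 400.4, 362 and 409 CPM in Adn-Lpin1-/- HFD mice. Every HFD mouse of this genotype was above every LFD mouse. Crot was the 1 gene of the 40 whose groups did not overlap here, where 4.06% of all genes did not overlap in either direction. The increase was 1.35-fold (log2 fold change 0.43, standard error 0.10, adjusted p = 0.0307), and the exact permutation test gave p = 0.00794. The call was lost without any of 7 mice (Adn-Lpin1-/- LFD mice 1, 2, 3 and 4 and HFD mice 1, 3 and 5), with log2 fold changes of 0.40 to 0.46 and adjusted p of 0.0510 to 0.0729.

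In WT mice Crot had 252, 272, 241, 251 and 391 CPM on the LFD and 395, 347, 387, 328 and 375 CPM on the HFD. Apart from mouse 5, the WT LFD mice were all below the WT HFD mice, and the groups did not overlap in 0 of the 40 genes against 3.73% of all genes. The log2 fold change was 0.38 (standard error 0.10, adjusted p = 0.0759), and without WT LFD mouse 5 it was 0.53 (adjusted p = 0.00121). The diet effect on Crot differed between the genotypes by 0.05 (95% confidence interval -0.25 to 0.36). The log2 fold change of Acadm was 0.41 in WT mice (standard error 0.10, adjusted p = 0.0573), and in Adn-Lpin1-/- mice the difference was 0.31 (standard error 0.10, adjusted p = 0.128). Exact permutation tests of Acadm gave p = 0.0159 and p = 0.0238, unadjusted, among 40 such tests of 10 genes. Without WT LFD mouse 5, WT HFD mouse 5, Adn-Lpin1-/- LFD mouse 5 or Adn-Lpin1-/- HFD mouse 5, the WT diet difference of Acadm was called, with adjusted p of 0.0253, 0.0260, 0.0498 and 0.0430. Ppara had log2 fold changes by diet of 0.23 in WT mice and 0.24 in Adn-Lpin1-/- mice (adjusted p of 0.620 and 0.594), and Cpt1a of 0.07 and -0.21 (adjusted p of 0.875 and 0.526). Cyp4a14 and Vnn1 had the largest diet differences in WT mice, at 1.50 (standard error 0.74, adjusted p = 0.334) and 0.82 (standard error 0.37, adjusted p = 0.284), and in Adn-Lpin1-/- mice that of Vnn1 was 0.12. Over the 40 genes, the median log2 fold change by diet was 0.06 in WT mice and -0.003 in Adn-Lpin1-/- mice, and with each mouse left out in turn it ran from -0.002 to 0.15 and from -0.06 to 0.07.

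**Figure D3:**
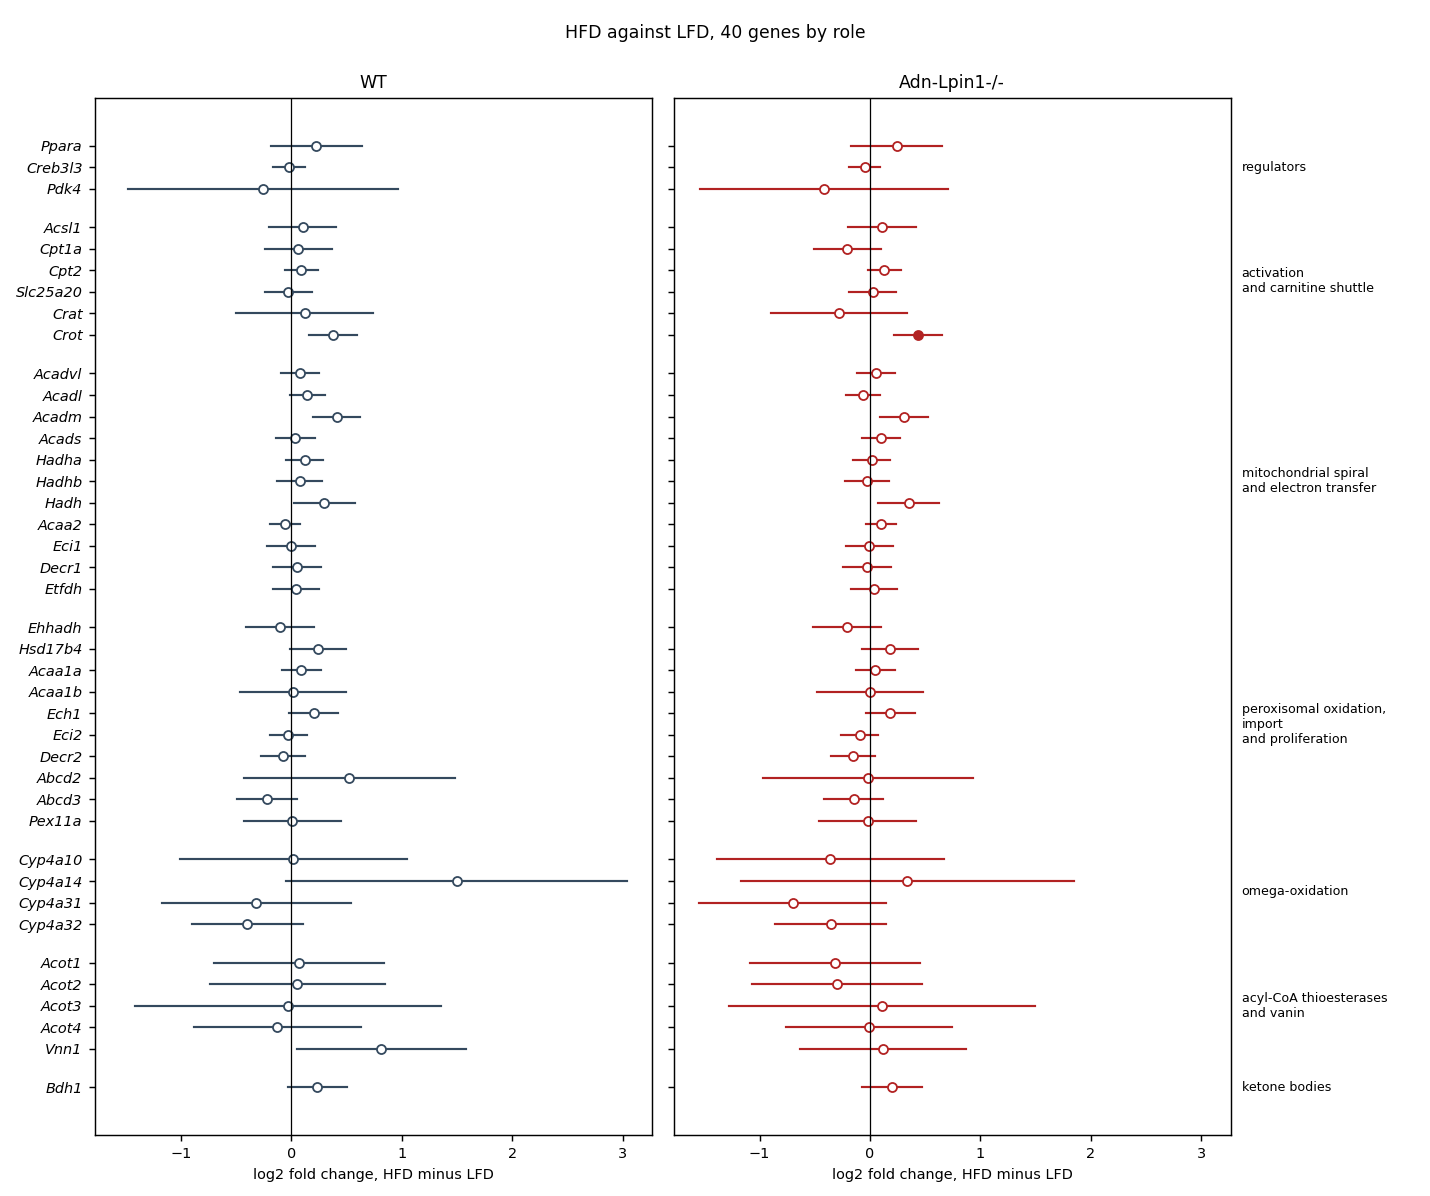
Log2 fold change of HFD against LFD for the 40 genes, ordered by role, in WT mice (left) and Adn-Lpin1-/- mice (right), with points for the edgeR estimate, bars for the 95% confidence interval and filled points for called genes. Crot in Adn-Lpin1-/- mice, at 0.43, is the only filled point, and Acadm and Crot stand apart from 0 in WT mice at 0.41 and 0.38.

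The genotype difference did not differ past the threshold between the diets for any of the 40 genes, and 0 of 13052 genes were called in this comparison (0%). Of the 40 genes, 0 had an unadjusted p under 0.05 in edgeR's test, against 938 of all genes. DESeq2's Wald test called 0 of the 40 and 30 of all 13052 genes (0.230%). Voom with quality weights called 0 of the 40 and 0 of all genes. The fitted differences ran from -1.16 for Cyp4a14 to 0.16 for Acaa2, with a median of -0.04. The 95% confidence interval of the Cyp4a14 difference was -3.30 to 0.98, which leaves room for a large difference in either direction.

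The 40 genes varied among mice of the same group to very different degrees, also within most roles. The 11 mitochondrial genes had a median within-group SD of 0.16 on the log2 scale, with a range of 0.09 to 0.23, where the median of all genes tested was 0.19. The peroxisomal genes had a median of 0.21 and a range of 0.13 to 0.80, and the genes of activation and shuttle a median of 0.21 and a range of 0.11 to 0.54. The 4 Cyp4a genes ran from 0.42 to 1.49, the thioesterases with Vnn1 from 0.67 to 1.32, and the 3 regulators from 0.10 to 0.97. Cyp4a14 (1.49), Acot3 (1.32), Cyp4a10 (1.01) and Pdk4 (0.97) had the largest SDs of the 40, each above that of at least 99.2% of all genes. Acaa2 (0.09), Creb3l3 (0.10), Cpt2 (0.11) and Acadl (0.12) had the smallest. Levels per length ran from 552 CPM per kb for Acaa2 to 1.73 for Pdk4, and together the 40 genes held 11066 CPM, of which the mitochondrial genes held 3203 and the peroxisomal genes 3347.

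**Figure D4:**
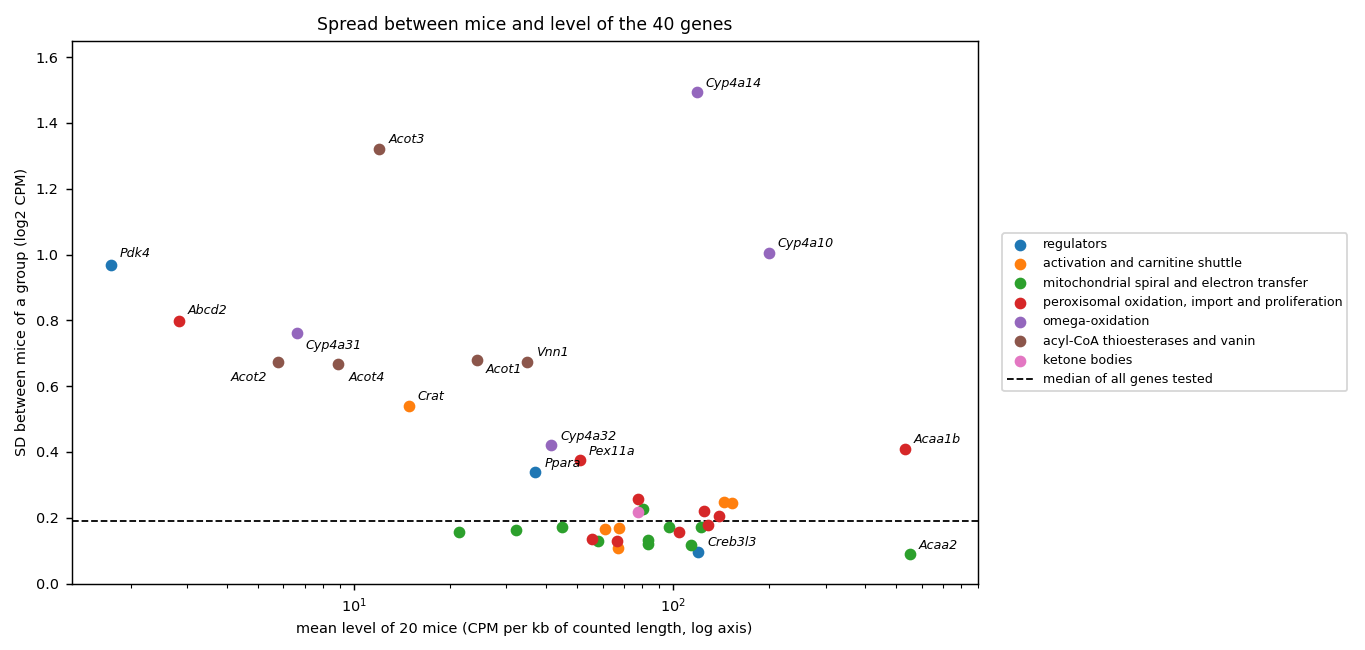
SD between mice of a group (vertical axis, log2 CPM, pooled over the 4 groups) against the mean level per length (horizontal log axis, CPM per kb of counted length) for each of the 40 genes, coloured by role, with a dashed line at the median SD of all genes tested. Cyp4a14, at 1.49, and Acot3, at 1.32, lie highest, while the mitochondrial genes cluster near or under the dashed line at 0.19.

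The same mice were low or high in most of the 40 genes. WT LFD mouse 2 was the lowest of its 5 in 35 of the 40 genes, and WT HFD mouse 5 was the lowest of its 5 in 35 of the 40. These mice were lowest of their group in 19.3% and 27.4% of all genes. WT LFD mouse 5 was the highest of its group in 30 of the 40 genes, Adn-Lpin1-/- HFD mouse 1 in 26, and WT HFD mouse 4 and Adn-Lpin1-/- LFD mouse 4 in 23 each. Adn-Lpin1-/- HFD mouse 5 was the lowest of its group in 25, and Adn-Lpin1-/- LFD mouse 1 in 22. Over the 40 genes, the median deviation from the group mean was -0.30 on the log2 scale in WT LFD mouse 2 and -0.32 in WT HFD mouse 5. Both were the most deeply sequenced mice of their groups, at 45999456 and 62249701 counts. Adn-Lpin1-/- LFD mouse 1, at 52955319 counts, and Adn-Lpin1-/- HFD mouse 5, at 75418975, were not, since mouse 3 of each of these groups was deeper, at 61435897 and 81072794 counts. The part of depth was not tested. Without WT LFD mouse 2, 2 of the 40 genes passed the threshold in the LFD comparison of genotypes, and without WT HFD mouse 5, 1 did in that on the HFD. The share of all genes called in these fits is not given here, so the counts do not set the 40 apart from other genes.

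**Figure D5:**
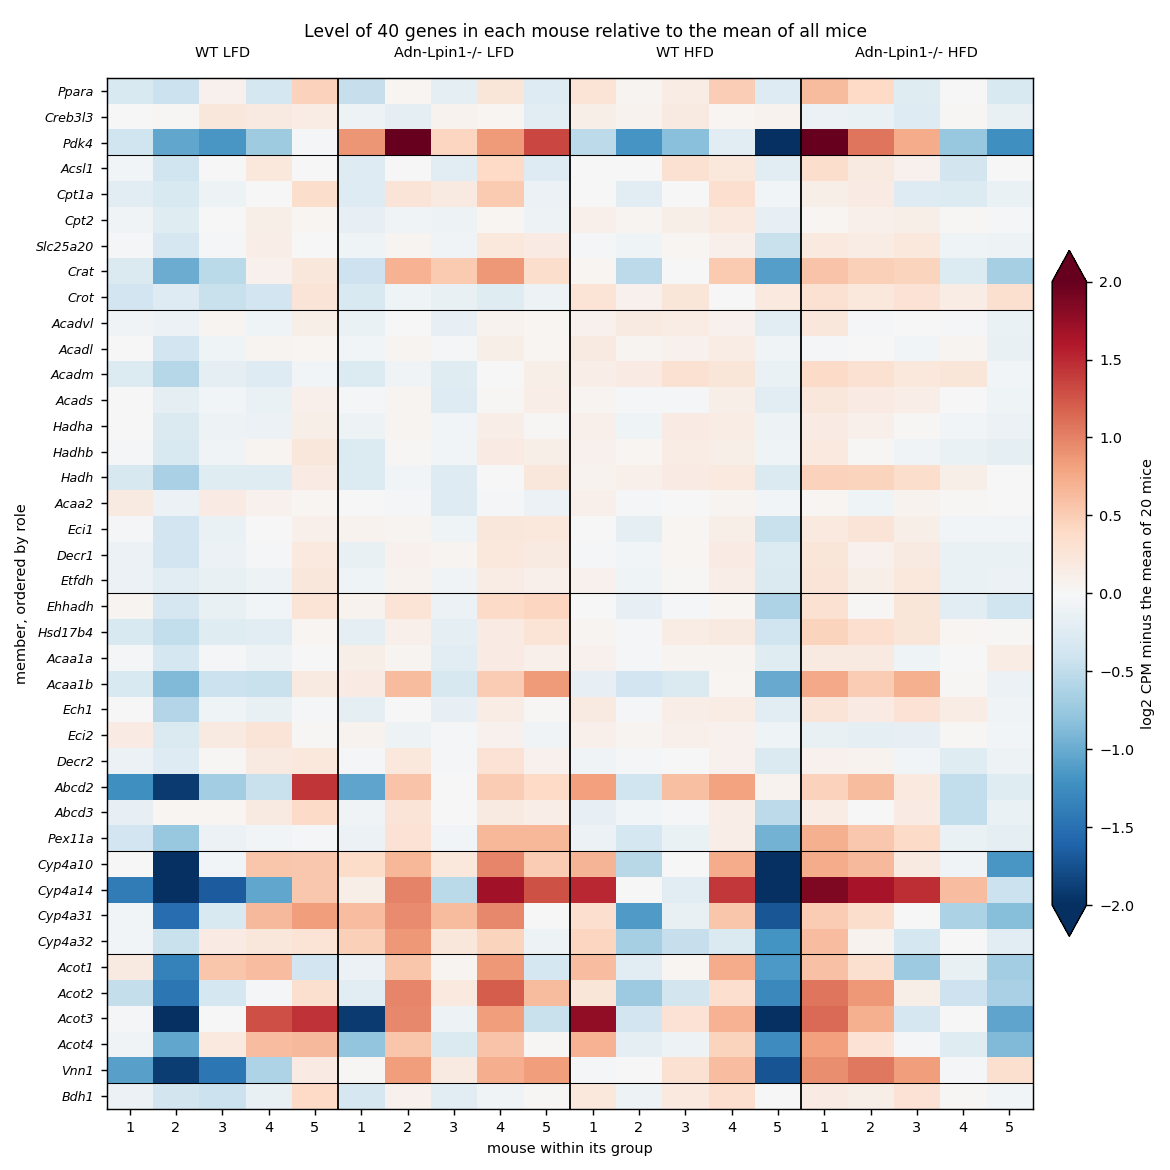
Level of the 40 genes (rows, by role) in each of the 20 mice (columns, by group) as log2 CPM minus the mean of all 20 mice, with colours cut at -2 and 2. Mouse 2 of WT LFD and mouse 5 of WT HFD are blue in nearly all rows, and the Cyp4a, Acot, Pdk4 and Vnn1 rows hold the strongest colours.

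Other genes of the pathway, taken from lists outside the 40, were called in both directions, and on the LFD 1059 of the 1877 called genes of the whole liver were lower in Adn-Lpin1-/- mice, on the HFD 1146 of 2434. Of 14 partners and coregulators of PPAR alpha, 2 were called on each diet, and both were lower in Adn-Lpin1-/- mice. They were the coactivator Ncoa2, with log2 fold changes of -0.42 (LFD) and -0.37 (HFD), and the deacetylase Sirt1, with -0.37 and -0.34. Of 15 other genes of mitochondrial oxidation and acyl-CoA handling, 3 were called on the LFD, of which the thioesterase Acot9 was higher (0.61) and Acadsb (-0.45) and the malonyl-CoA decarboxylase Mlycd (-0.22) were lower. On the HFD 5 of the 15 were called, 2 higher and 3 lower, with the largest differences in Acot9 (0.67), Mlycd (-0.34) and Acadsb (-0.31). Of 28 other peroxisomal genes, 4 were called on the LFD and all 4 were lower, with the largest differences in Hacl1 (-0.38), Phyh (-0.34) and Amacr (-0.33), of which Hacl1 and Phyh belong to alpha-oxidation. On the HFD 1 of the 28 was called, Amacr, at -0.22.

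Of 7 other omega-oxidation genes, 2 were called on the LFD (Cyp4f14 at -0.53 and Cyp4v3 at -0.42) and 1 on the HFD (Cyp4f14 at -0.71), all lower in Adn-Lpin1-/- mice. By diet, 1 of the 7 was called in WT mice, Cyp4a12b, a Cyp4a gene outside the 40, which was lower on the HFD (-1.48, adjusted p = 0.000465 from edgeR's test). In Adn-Lpin1-/- mice 3 of the 7 were called by diet, with Cyp4a12b (-1.72, adjusted p = 4.43e-05) and Cyp4a12a (-1.11, adjusted p = 0.0202) lower and Cyp4v3 higher (0.53, adjusted p = 0.00631) on the HFD. Of all genes, 1.10% were called by diet in WT mice and 2.46% in Adn-Lpin1-/- mice. How alike Cyp4a12a and Cyp4a12b are in sequence was not examined. Of 11 other PPAR alpha targets of lipid handling that passed the limit, 1 was called on each diet, Ucp2, which encodes an uncoupling protein that macrophages also express, higher by 0.77 on the LFD and 1.21 on the HFD. For every one of these lists the share called on the LFD or the HFD is to be read against the 14.4% and 18.6% of all genes.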

How the data were processed

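Per the labels and methods, the authors aligned single-mouse and pooled poly-A libraries with STAR 2.5.1a to GRCm38 with Ensembl 76 genes and counted uniquely aligned, unambiguous reads with featureCounts 1.4.6-p5; the strand setting is not given in the sources used here. The deposited values are counts, CPM and RPKM of 41388 genes, and only the counts were analysed. The 40 genes and the other lists were chosen with earlier results of these data known. After 355 rRNA genes were left out, genes above 1 CPM in 4 or more of the 20 single-mouse libraries were scaled by TMM and fitted in edgeR 4.0.16 (R 4.3.3) with 4 group means and the quasi-likelihood test, with Benjamini-Hochberg adjustment and a threshold of 0.05. CPM values use TMM-scaled library sizes, and single genes were also compared by two-sided exact permutation tests of log2 CPM (prior count 2, scipy 1.17.1), unadjusted, for which 0.00794 is the smallest p.

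Mouse values are printed for genes called in at least 1 of the 4 comparisons of 2 groups, at most the 14 with the largest difference, and for Ppara, Creb3l3, Cpt1a and Acadm; from other lists the 3 largest called differences are named. Cyp4a14 and Pex11a were added after their values were seen. DESeq2 1.42.0, limma 3.58.1 (voom with quality weights, without and with the pools), other limits, a replicate block, removal of each library's GC trend and leaving out each mouse were the alternatives. The labels give the mice of each group the numbers 1 to 5 and do not say whether a number marks a shared litter or day. Libraries of a group differed beyond sampling noise. Where nothing names separate cages or litters, p-values measure the spread between these mice. On simulated counts for the LFD comparison (12898 genes, 200 of them changed 2-fold), edgeR recovered 171 with 9 false calls. DESeq2 recovered 180 with 26 false calls, and voom 169 with 10. Coding identity was computed from the longest reading frames of GENCODE M21 transcripts.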

Additional observations from a re-analysis of the deposited data

Results flagged for a closer look

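In 2 of 40 groups of 5 mice (10 genes in 4 groups), 1 mouse stood apart from the other 4 by a gap of more than 0.71 of the group's range, and chance alone gives about 1 such group in 20. Pdk4 in Adn-Lpin1-/- LFD mouse 2 was at 25.0 CPM, where the other 4 mice lay between 5.45 and 10.3 CPM. Without this mouse the Pdk4 rise on the LFD was 1.53 on the log2 scale and no longer called. Crot in WT LFD mouse 5 was at 391 CPM, where the other 4 mice lay between 241 and 272 CPM. Without this mouse the WT diet difference of Crot was 0.53 and past the threshold (adjusted p = 0.00121, edgeR).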

How the results depend on the processing

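On the LFD, 5 of the 40 genes were called by DESeq2 (17.2% of all genes), 6 by voom (2217 of 13052 genes) and 16 by voom with the pools (31.8%), and on the HFD 1 by voom (18.7%), 6 by voom with the pools (36.3%) and 1 with the replicate block (15.4%). By diet, WT mice had 2 called by DESeq2 (3.06%), 4 by voom (5.13%) and 11 by voom with the pools (14.7%), and Adn-Lpin1-/- mice 3 by voom with the pools (17.7%). The pools hold RNA of the same mice and are not further animals. Ppara on the LFD turned to 0.087 with voom and 0.081 with the pools, and the Crot difference between diets to -0.027 with voom. The cause was not tested.

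When single mice were left out, the median difference of the 40 genes ran from 0.04 to 0.18 on the LFD, -0.01 to 0.13 on the HFD and -0.16 to -0.003 between the diets. Called genes numbered 0 to 5 among the 40 on the LFD (0 without WT mouse 3, 1 without Adn-Lpin1-/- mouse 2, 5 without WT mouse 5) and 0 to 4 on the HFD (0 without WT mouse 2 or Adn-Lpin1-/- mouse 1, 1 without WT mouse 3 or 5 or Adn-Lpin1-/- mouse 2 or 3). They numbered 0 to 3 by diet in WT mice (3 without WT LFD mouse 5) and 0 to 1 by diet in Adn-Lpin1-/- mice. The share of all genes called in each of these fits is not given here, so these counts do not set the 40 apart from other genes. Log2 fold changes that changed sign ran from -0.14 to 0.13 for Ppara and -0.014 to 0.19 for Crot on the LFD, -0.17 to 0.074 for Ppara on the HFD and -0.020 to 0.18 for Cpt1a by diet in WT mice. Differences between diets ran from -0.076 to 0.011 for Creb3l3 and -0.10 to 0.10 for Crot. In 1440 refitted values of 10 genes, 75 had the opposite sign, 0 of them of a called difference.

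Same-numbered mice did not deviate together in the median (correlation -0.01 over 30 pairs, 6 of them over 0.1, and 0.01 over 120 other pairs). The numbers were not used to pair mice in the main fit, and whether they mark a shared litter or day is not known. With the replicate block, 2 LFD calls and 1 HFD call were made among the 40, where 11.7% and 15.4% of all genes were called. Acaa1b was lost on both diets and Pdk4 on the HFD. Depth limits Pdk4 most, at 46 counts in the lowest mouse.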
